A study of Mus musculus with 12 samples.

Results

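The transcripts described here are those of 8 genes whose products carry, activate or cleave ketone bodies: Oxct1, Bdh1, Acat1, Acat2, Aacs, Slc16a1, Slc16a3 and Bsg. They were taken by gene symbol from a table of 23446 genes, and all 8 were among the 12230 genes with enough reads to be tested. RNA came from C2C12, an established line of mouse skeletal myoblasts, so every group shares the genotype of that line. The cells were kept in differentiation medium (DM), in which they leave the cell cycle and form myotubes, or in growth medium (GM), in which they proliferate, and received the ketone body acetoacetate (AA) or PBS for 12 h. The groups were DM with AA (DM-AA), DM with PBS (DM-PBS), GM with AA (GM-AA) and GM with PBS (GM-PBS), with 3 libraries each. The labels give neither the dose and salt of AA nor the serum of each medium, nor whether replicate libraries stem from independent cultures. The p-values therefore measure the spread between libraries, which may be technical.

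Ketone bodies are made mainly in liver mitochondria and burned in other tissues, muscle among them. Monocarboxylate transporters of the Slc16 family move acetoacetate, β-hydroxybutyrate, lactate and pyruvate across the plasma membrane together with a proton, and need a chaperone such as basigin to reach it. In the mitochondria of the receiving cell, β-hydroxybutyrate is oxidised to acetoacetate, which is given a CoA group and split by a thiolase into acetyl-CoA for the citric acid cycle. In the cytosol, acetoacetate can instead be activated directly and used for sterol and fatty acid synthesis.

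Gene counts totalled 8027518 to 8245402 per library in DM-AA, 7959519 to 9893564 in DM-PBS, 8484417 to 8801619 in GM-AA and 8292006 to 8965129 in GM-PBS. The 6 myoblast markers Myod1, Myf5, Des, Cdh15, Pax7 and Vim were all tested, and summed to 7422 to 7951 CPM (library-scaled read counts) in DM-AA, 8137 to 8358 CPM in DM-PBS, 6973 to 7321 CPM in GM-AA and 7963 to 8415 CPM in GM-PBS. Vim made up most of each sum, averaging 5214 CPM in DM-AA, 6194 in DM-PBS, 5010 in GM-AA and 6221 in GM-PBS. The sums therefore mainly follow Vim, which was lower with AA. With AA, 3 of the 6 were higher and 1 lower in DM, where 12.6% and 13.8% of all tested genes were. In GM, 3 were higher and 2 lower, beside 9.76% and 11% of all tested genes. The 6 myotube markers Myog, Myh3, Ckm, Tnnt3, Acta1 and Tmem8c summed to 193 to 246 CPM in DM-AA, 98.1 to 108 CPM in DM-PBS, 84.5 to 113 CPM in GM-AA and 64.4 to 74.4 CPM in GM-PBS. In PBS, 2 myotube markers were higher in DM than in GM (Myog by a log2 fold change of 2.58, Tmem8c by 0.80) and 2 were lower (Acta1, -1.34, and Myh3, -0.99), so the set did not rise as a whole with the medium. Of 5 markers each of adipocytes, osteoblasts and chondrocytes, epithelium and endothelium, 0 had enough reads to be tested, and no such list summed to more than 2.44 CPM in a library. Plin1, Lep and Ibsp were at 0 in all 12 libraries. Of 5 immune markers, Cd68 was tested, and the list summed to 2.34 to 4.82 CPM. In RNA from whole cultures, fewer cells of a type and less RNA per cell cannot be told apart.

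The 250 bases upstream of the start site are shown for the pair of cytosolic enzymes, which changed in the same direction in both media comparisons and with AA in DM, and for the pair of carriers, which were both lower in DM. They are RefSeq sequences on GRCm38.p6, whose table held 6 of the 8 members (all except Acat1 and Bsg), written 5′ to 3′ on the strand of the gene. The Acat2 window is chr17:12960726-12960975 (minus strand), the Aacs window chr5:125475623-125475872 (plus strand), the Slc16a1 window chr3:104638414-104638663 (plus strand) and the Slc16a3 window chr11:120948817-120949066 (plus strand). Capitals mark the motif matches and shared runs described after them.
Acat2: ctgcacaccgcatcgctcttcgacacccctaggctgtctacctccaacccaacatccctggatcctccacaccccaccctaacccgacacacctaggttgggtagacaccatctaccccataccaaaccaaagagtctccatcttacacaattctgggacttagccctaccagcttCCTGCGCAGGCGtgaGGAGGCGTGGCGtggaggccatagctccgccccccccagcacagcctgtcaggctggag
Aacs: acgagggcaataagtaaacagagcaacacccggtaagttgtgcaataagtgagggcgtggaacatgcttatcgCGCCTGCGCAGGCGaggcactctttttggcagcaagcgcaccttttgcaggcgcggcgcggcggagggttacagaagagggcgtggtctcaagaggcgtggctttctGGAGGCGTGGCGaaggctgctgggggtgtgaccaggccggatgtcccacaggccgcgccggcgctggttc
Slc16a1: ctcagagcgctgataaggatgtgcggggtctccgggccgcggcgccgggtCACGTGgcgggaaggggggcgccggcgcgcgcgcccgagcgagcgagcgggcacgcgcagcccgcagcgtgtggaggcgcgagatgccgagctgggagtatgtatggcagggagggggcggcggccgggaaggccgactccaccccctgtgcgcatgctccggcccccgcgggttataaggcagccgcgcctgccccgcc
Slc16a3: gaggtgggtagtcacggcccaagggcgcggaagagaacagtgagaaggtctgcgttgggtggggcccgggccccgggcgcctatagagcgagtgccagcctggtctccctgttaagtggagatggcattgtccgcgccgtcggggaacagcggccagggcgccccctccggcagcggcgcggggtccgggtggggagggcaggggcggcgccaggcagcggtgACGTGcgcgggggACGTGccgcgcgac

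The longest runs shared by the Acat2 and Aacs windows, found on either strand, were 2 of 12 bases. This pair was searched because both genes changed together. Any pair of windows has a longest shared run, and long words are rare. Other pairs were not examined, so the shares of windows given for these runs are a description only. CCTGCGCAGGCG began 74 bases before the Acat2 start and 175 bases before the Aacs start, where it overlaps itself on the other strand, and was found in 0.0639% of 32851 windows of that length. GGAGGCGTGGCG began 59 bases before the Acat2 start and 70 bases before the Aacs start, and was found in 0.0335% of windows. A form of the sterol regulatory element, TCACNCCAC, was found on either strand in 1.05% of windows, and CCAAT in 33.8%. Neither the Acat2 nor the Aacs window held these letters. The E-box CACGTG, found in 6.02% of windows, began 200 bases before the Slc16a1 start. ACGTG, the core of the hypoxia response element, was found in 16.6% of windows and began 27 and 14 bases before the Slc16a3 start. It also lies within the CACGTG of Slc16a1 on both strands, and once, on the opposite strand, 97 bases before the Oxct1 start. A match of letters does not show that a factor binds there.

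Levels of the 8 genes spanned a wide range on the RPKM scale, which is per length and lets genes be compared. Bsg, which encodes basigin, averaged 252 RPKM in DM-AA, 237 in DM-PBS, 365 in GM-AA and 367 in GM-PBS, and ranked between 51 and 94 of 23446 genes by mean RPKM. Oxct1, Slc16a1 and Slc16a3 had group means between 26.4 and 66.0 RPKM. Acat2 averaged 30.7 RPKM in DM-AA and 43.6 in DM-PBS, above both carriers in these groups, and 21.7 in GM-AA and 23.7 in GM-PBS, below them. Aacs averaged 13.8 to 24.1 RPKM and Acat1 8.62 to 10.5 RPKM over the 4 groups. Bdh1 was near the limit of detection, at 0.347 to 0.604 RPKM and 10 to 35 reads per library. Every group thus had far more mRNA of Oxct1, which activates acetoacetate, than of Bdh1, which interconverts it with β-hydroxybutyrate.

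**Figure D1:**
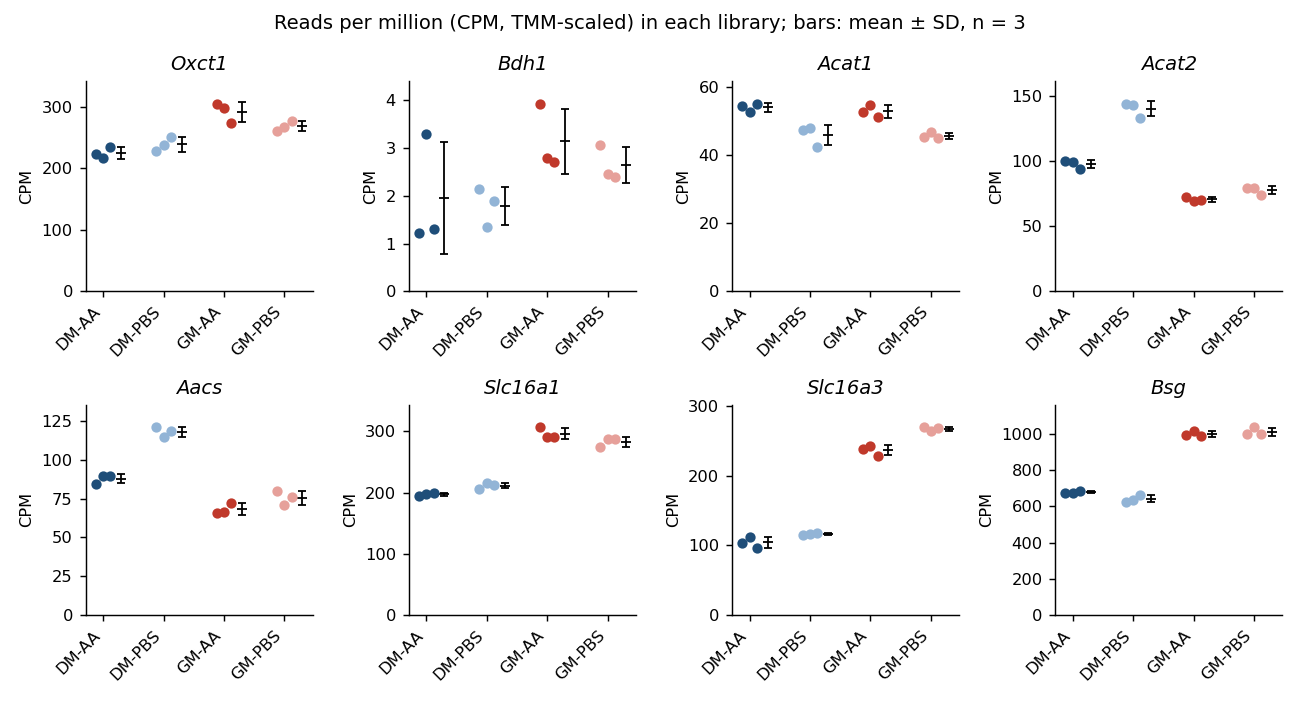
CPM scaled by TMM (vertical axis, from 0) of each of the 8 genes in the 12 libraries, with groups along the horizontal axis; points are libraries and bars show the mean ± SD (n = 3). Acat2 and Aacs are highest in DM-PBS, Slc16a1, Slc16a3 and Bsg are lower in both DM groups than in both GM groups, and Acat1 is higher with AA in both media.

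In DM, AA came with less mRNA of both cytosolic enzymes: Acat2 fell by 30.3% and Aacs fell by 25.6%. The mitochondrial thiolase Acat1 rose by 17.7% and the carrier Slc16a3 fell by 10.5%. That made 1 member higher and 3 lower of 8 past a 5% false discovery rate (FDR), where 26.4% of all tested genes were called (12.6% higher, 13.8% lower), and 5 at an unadjusted p under 0.05. In GM, 1 member was higher (Acat1) and 1 lower (Slc16a3), against 20.7% of all tested genes called (9.76% higher, 11% lower), and 5 had an unadjusted p under 0.05. The share past 5% FDR in GM is near that of all genes. No share of all genes is given at the unadjusted cut, so the counts at that cut cannot be read as an excess. The AA and PBS libraries did not overlap for 6 of the 8 in DM, where 40.1% of tested genes did not, and for 4 in GM, where 34% did not. The median absolute log2 fold change of the 8 was 0.13 in DM and 0.14 in GM, beside 0.14 in DM and 0.13 in GM for all tested genes.

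More members passed between media, as did more of all genes. In PBS, 2 were higher in DM (Acat2 and Aacs) and 4 were lower (Oxct1, Slc16a1, Slc16a3 and Bsg), against 54.4% of all tested genes called (27% higher, 27.4% lower). In AA, the same 2 were higher in DM and 5 were lower (Oxct1, Bdh1, Slc16a1, Slc16a3 and Bsg), against 52.2% called among all tested genes (25.9% higher, 26.3% lower). The DM and GM libraries did not overlap for 6 of the 8 in AA, against 57.4% of tested genes, and for 7 in PBS, against 59.4%. The median absolute log2 fold change of the 8 was 0.59 in PBS and 0.52 in AA, beside 0.24 and 0.23 for all tested genes. Each comparison of media shares a group of libraries with each AA comparison, so the values stand side by side and no relation between them is given. The AA effect itself differed between the media for 2 members, Acat2 and Aacs, both lower in DM. Of all tested genes, 5.24% passed (2.58% higher, 2.67% lower). At an unadjusted p under 0.05 there were 4 members, with no share of all genes given at that cut.

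**Figure D2:**
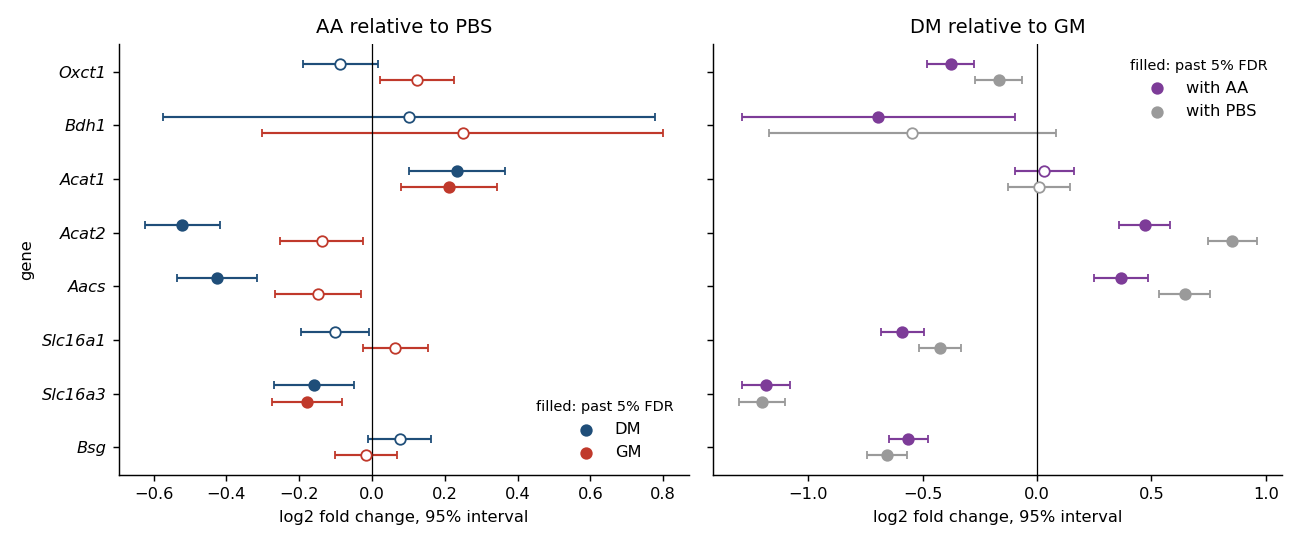
Log2 fold change with its 95% interval (horizontal axis) of each gene (rows), for AA relative to PBS in DM and GM (left) and for DM relative to GM with AA and with PBS (right); filled points passed 5% FDR. The AA effects lie between -0.52 and 0.25, while Slc16a3 reaches -1.20 between media.

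Libraries with AA and with PBS differed in how their counts ran with GC content. Across the 12137 tested genes with a known GC content, Spearman's rho between a library's deviation from the mean of all libraries and GC was -0.158 to -0.0582 in DM-AA, 0.12 to 0.153 in DM-PBS, -0.168 to -0.115 in GM-AA and 0.0105 to 0.211 in GM-PBS. These are correlations across genes, which are not independent replicates. The AA comparisons were therefore also fitted after correction for GC and length (each library's trend with both was removed), and those values are given for the members whose call they change.

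Oxct1 encodes the mitochondrial enzyme that moves CoA from succinyl-CoA to acetoacetate, the committed step of ketone body use. It had 224, 216 and 235 CPM in DM-AA, 228, 238 and 251 CPM in DM-PBS, 305, 297 and 274 CPM in GM-AA, and 261, 266 and 277 CPM in GM-PBS. The AA and PBS ranges overlapped in each medium, and all DM libraries lay below all GM libraries. The AA effect was -0.087 ± 0.051 (log2 fold change ± SE) in DM, with an adjusted p of 0.222, and 0.12 ± 0.050 in GM, with an adjusted p of 0.0756. After correction for GC and length, the DM value was -0.14 with an adjusted p of 0.0189. Without GM-AA replicate 3 the GM value was 0.17 with an adjusted p of 0.0276. The difference of the AA effects was -0.21 ± 0.071 (adjusted p = 0.0823), and it passed after that correction (adjusted p = 0.0417) or without GM-AA replicate 3 (adjusted p = 0.0360). Between media, Oxct1 was lower in DM, with a log2 fold change of -0.38 ± 0.050 in AA (adjusted p = 1.12e-07) and -0.17 ± 0.050 in PBS (adjusted p = 0.00548). Without DM-PBS replicate 1 the PBS value was -0.13 (adjusted p = 0.0537). In the GENCODE annotation, 12.6% of the Oxct1 exon bases overlap BC037032 on the opposite strand, and whether the counting used strand is not given in the sources used here.

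Bdh1, the mitochondrial dehydrogenase that interconverts β-hydroxybutyrate and acetoacetate, had 10, 27 and 11 reads in DM-AA, 21, 11 and 15 in DM-PBS, 35, 24 and 23 in GM-AA, and 27, 20 and 20 in GM-PBS. Ordered by their means, neighbouring groups overlapped. Its AA effect was 0.10 ± 0.33 in DM (adjusted p = 0.861) and 0.25 ± 0.27 in GM (adjusted p = 0.566), with 95% intervals of -0.58 to 0.78 in DM and -0.30 to 0.80 in GM. Without DM-AA replicate 2, the library with 27 reads, the DM value was -0.51, and without DM-PBS replicate 2 it was -0.054. Bdh1 was lower in DM than in GM in AA (-0.69 ± 0.29, adjusted p = 0.0462), a call that was lost in 8 of 16 alternatives. These include DESeq2 (adjusted p = 0.111) and leaving out GM-AA replicate 1 (-0.50), DM-AA replicate 1 (-0.45) or DM-AA replicate 3 (-0.47). In PBS the change of medium was -0.54 ± 0.31 (adjusted p = 0.136). Of its exon bases, 13.7% overlap Gm15743 on the opposite strand.

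Acat1 encodes the mitochondrial acetoacetyl-CoA thiolase, which splits acetoacetyl-CoA into acetyl-CoA. It was the one member higher with AA in both media, with 54.6, 52.6 and 55.2 CPM in DM-AA, 47.5, 47.9 and 42.4 CPM in DM-PBS, 52.8, 54.9 and 51.2 CPM in GM-AA, and 45.5, 46.8 and 45.1 CPM in GM-PBS. Every AA library exceeded every PBS library, whichever the medium. With AA it rose by a log2 fold change of 0.23 ± 0.065 in DM (adjusted p = 0.00635) and 0.21 ± 0.065 in GM (adjusted p = 0.0179). After correction for GC and length, the effect was 0.17 in DM (adjusted p = 0.0397) and 0.15 in GM (adjusted p = 0.0883). The DM call was lost without DM-PBS replicate 3 (0.19, adjusted p = 0.0509), and the GM call also with DESeq2 (adjusted p = 0.0612), without GM-AA replicate 2 (0.18, adjusted p = 0.0788) and without GM-PBS replicate 3 (0.20, adjusted p = 0.0573). The AA effects did not differ detectably between media (difference 0.024 ± 0.091). The change of medium gave 0.031 ± 0.063 in AA and 0.0079 ± 0.066 in PBS, with adjusted p of 0.705 and 0.930.

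Acat2, the cytosolic thiolase that condenses acetyl-CoA into acetoacetyl-CoA at the start of sterol synthesis, had the largest AA effect in DM of the 8. It had 100.1, 98.9 and 94.2 CPM in DM-AA, 144, 143 and 133 CPM in DM-PBS, 72.3, 69.1 and 70.0 CPM in GM-AA, and 79.5, 79.2 and 74.0 CPM in GM-PBS. The 4 groups did not overlap at any step, in the order DM-PBS, DM-AA, GM-PBS and GM-AA from high to low. The AA effect in DM was -0.52 ± 0.051 (95% interval -0.62 to -0.42, adjusted p = 8.22e-10). In GM it was -0.14 ± 0.056 (95% interval -0.25 to -0.024) with an adjusted p of 0.0776, which is not past the threshold. The difference of the AA effects was -0.38 ± 0.076 (adjusted p = 0.00126), and its adjusted p stayed at or below 0.00828 over 21 alternatives. Between media, Acat2 was higher in DM by 0.47 ± 0.055 in AA (adjusted p = 6.44e-09) and 0.85 ± 0.052 in PBS (adjusted p = 9.70e-16). Of the 31-base words of the Acat2 transcript, 43.7% also occur in other genes, Acat3 and Tcp1 among them, so the split of reads between these copies is uncertain. Acat3 itself had 2 to 23 reads per library, while the level of Tcp1 is not given here.

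Aacs encodes acetoacetyl-CoA synthetase, which activates acetoacetate in the cytosol for lipid synthesis. It had 84.6, 89.9 and 89.5 CPM in DM-AA, 121, 115 and 119 CPM in DM-PBS, 65.8, 66.6 and 72.5 CPM in GM-AA, and 79.8, 70.7 and 76.2 CPM in GM-PBS. The order of groups was that of Acat2, with overlap between the GM groups. The AA effect in DM was -0.43 ± 0.054 (adjusted p = 1.83e-07) and remained past the threshold in all 16 alternatives. In GM it was -0.15 ± 0.059 (adjusted p = 0.0693), and it passed without GM-AA replicate 3 (-0.19, adjusted p = 0.0363) or without GM-PBS replicate 2 (-0.19, adjusted p = 0.0317). The difference of the AA effects was -0.28 ± 0.080 (adjusted p = 0.0321). That call was lost in 9 of 21 alternatives: with DESeq2 (adjusted p = 0.0726), with limma on RPKM (adjusted p = 0.0546) and without any of 7 libraries, GM-AA replicate 3, GM-PBS replicates 2 and 3, DM-AA replicates 1 and 3 and DM-PBS replicates 1 and 3 (adjusted p 0.0524 to 0.115). Between media, Aacs was higher in DM by 0.37 ± 0.058 in AA (adjusted p = 2.06e-06) and 0.65 ± 0.055 in PBS (adjusted p = 5.34e-12). The myotube markers were higher in DM-AA than in DM-PBS, and their part in the lower Acat2 and Aacs levels was not tested.

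Slc16a1 encodes MCT1, the widely expressed proton-linked carrier that takes up ketone bodies and lactate. It had 195, 197 and 199 CPM in DM-AA, 207, 216 and 212 CPM in DM-PBS, 307, 290.5 and 291 CPM in GM-AA, and 274, 287 and 288 CPM in GM-PBS. The groups did not overlap, with GM-AA highest and DM-AA lowest. Slc16a1 was lower in DM than in GM with -0.59 ± 0.046 in AA (adjusted p = 5.30e-13) and -0.42 ± 0.045 in PBS (adjusted p = 1.14e-09). The AA effect was -0.10 ± 0.046 in DM (adjusted p = 0.107) and 0.065 ± 0.044 in GM (adjusted p = 0.328). After correction for GC and length, the DM value was -0.17 (adjusted p = 0.00172) and the GM value was -0.0033 (adjusted p = 0.967). The difference of the AA effects was -0.17 ± 0.064 (adjusted p = 0.142).

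Slc16a3 encodes MCT4, the carrier typical of glycolytic cells, where it exports lactate. It had 104, 112 and 96.9 CPM in DM-AA, 115, 117 and 117 CPM in DM-PBS, 239, 243 and 229 CPM in GM-AA, and 269.8, 265 and 269 CPM in GM-PBS. The groups did not overlap, and both DM groups lay far below the GM groups. Slc16a3 had the largest change between media of the 8 genes, -1.18 ± 0.051 in AA (adjusted p = 9.23e-20) and -1.20 ± 0.050 in PBS (adjusted p = 3.80e-20). With AA it fell, with a log2 fold change of -0.16 ± 0.054 in DM (adjusted p = 0.0254) and of -0.18 ± 0.047 in GM (adjusted p = 0.00618). Neither call held after correction for GC and length, where the values were -0.077 in DM (adjusted p = 0.282) and -0.11 in GM (adjusted p = 0.0650). The DM call was also lost without DM-AA replicate 1 (-0.16), DM-AA replicate 3 (-0.11), DM-PBS replicate 1 (-0.17), DM-PBS replicate 2 (-0.16) or DM-PBS replicate 3 (-0.15), with adjusted p of 0.0540 to 0.201. The AA effects did not differ detectably between media (difference 0.019 ± 0.071).

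The ratio of the carriers was lower in every DM library than in every GM library. The ratio of Slc16a3 to Slc16a1 RPKM was 0.911 ± 0.0699 (SD, n = 3; 0.839, 0.915 and 0.979) in DM-AA, 0.948 ± 0.0163 (0.929, 0.954 and 0.960) in DM-PBS, 1.38 ± 0.0524 (1.34, 1.36 and 1.44) in GM-AA and 1.63 ± 0.0578 (1.58, 1.61 and 1.69) in GM-PBS. Slc16a3 RPKM thus lay below Slc16a1 RPKM in the 6 DM libraries and above it in the 6 GM libraries. The ratio is given as a description, with no test.

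Bsg encodes basigin, the membrane glycoprotein that escorts MCT1 and MCT4 to the cell surface. It had 675, 674 and 684 CPM in DM-AA, 627, 637 and 664 CPM in DM-PBS, 994, 1017 and 990.5 CPM in GM-AA, and 999.7, 1038 and 998.9 CPM in GM-PBS. Every DM library lay below every GM library, DM-AA lay above DM-PBS, and the GM groups overlapped. Like its client carriers it was lower in DM, with -0.56 ± 0.042 in AA (adjusted p = 2.76e-13) and -0.66 ± 0.042 in PBS (adjusted p = 5.24e-15). The AA effect was 0.077 ± 0.043 in DM (adjusted p = 0.193) and -0.016 ± 0.042 in GM (95% interval -0.10 to 0.069). After correction for GC and length, the DM value was 0.14 (adjusted p = 0.00407).

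**Figure D3:**
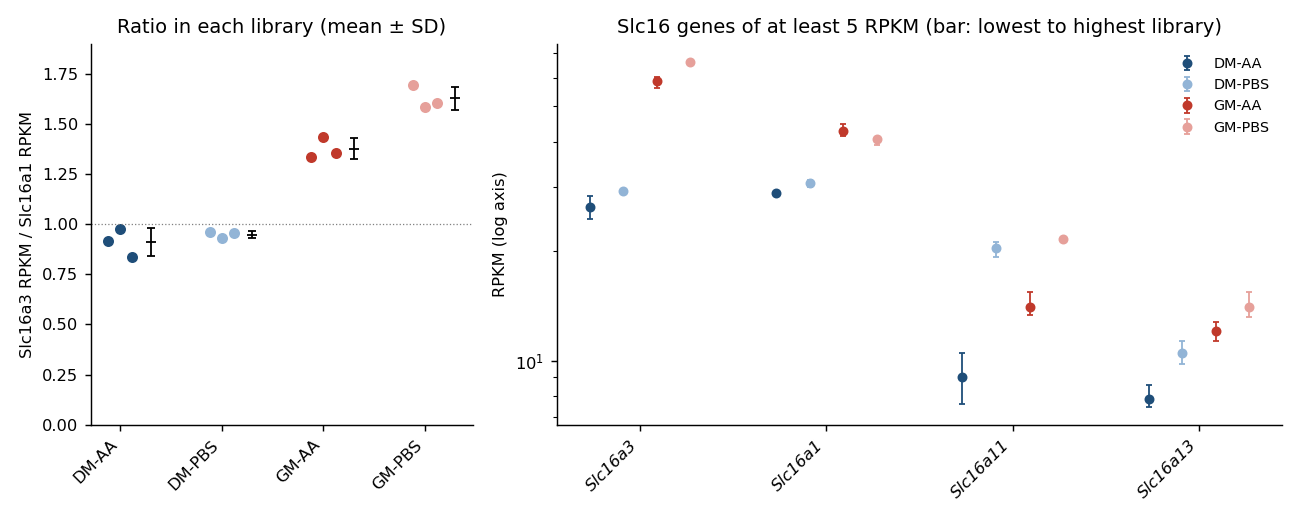
Left, the ratio of Slc16a3 to Slc16a1 RPKM in each library (points), with the mean ± SD (n = 3) and a dotted line at 1. Right, RPKM on a log axis of the tested Slc16 genes that averaged at least 5 RPKM over the groups, with points for group means and bars from the lowest to the highest library; Slc16a1 and Slc16a3 lead these genes, and Slc16a11 is lower with AA in both media.

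The other enzymes of ketone body metabolism were low. Of 7 such genes, 3 had enough reads to be tested, Bdh2 and Acat3 among them, and 0 of these 3 passed with edgeR or DESeq2 in any of the 5 comparisons; without GM-AA replicate 3, 1 was lower in DM in AA. An unadjusted p under 0.05 was reached by 1 of the 3 with AA in GM and by 1 between media in AA. No share of all genes is given at that cut. The receptors Hcar1, Hcar2 and Ffar3 were too low to be tested.

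Among 14 other Slc16 and sodium-coupled monocarboxylate carriers, 6 were tested. Beside this list and those below, the shares of all tested genes called were 26.4% with AA in DM and 20.7% in GM. Between media these shares were 52.2% in AA and 54.4% in PBS. With AA, 1 was higher and 2 lower in each medium, but without DM-AA replicate 3 none was higher in DM, and without GM-AA replicate 1 or GM-PBS replicate 3, 2 were higher in GM. Slc16a11, a transporter of the family linked to lipid metabolism and type 2 diabetes in humans, averaged 24.3 ± 3.96 CPM in DM-AA, 55.3 ± 2.43 CPM in DM-PBS, 38.6 ± 2.79 CPM in GM-AA and 59.6 ± 0.842 CPM in GM-PBS (SD, n = 3 each). It fell with AA, with a log2 fold change of -1.19 ± 0.084 in DM (adjusted p = 5.60e-13) and -0.63 ± 0.076 in GM (adjusted p = 1.47e-07), and the effect was larger in DM (difference -0.56 ± 0.11, adjusted p = 0.00169). These 3 calls held in all alternatives. Slc16a13, another carrier of the family, fell with AA in DM (-0.44 ± 0.083, adjusted p = 1.08e-04). In GM the Slc16a13 value was -0.23 ± 0.073 (adjusted p = 0.0218), and the call was lost in 6 of 16 alternatives. These were correction for GC and length (-0.16, adjusted p = 0.0909), alone or with the replicate block, DESeq2, limma on RPKM, and leaving out GM-AA replicate 2 or GM-PBS replicate 1. Slc16a10, an aromatic amino acid transporter, was the one higher with AA in GM (0.60 ± 0.16, adjusted p = 0.00711). Between media, 2 were higher and 3 lower in DM in AA, and 3 were higher and 1 lower in DM in PBS. In AA the 2 higher ones were 1 without GM-AA replicate 1 or DM-AA replicate 2. Slc16a7, which encodes MCT2, had at most 1 read in a library.

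The other chaperones of the carriers are Emb and Nptn. Emb, which escorts MCT2 and can escort MCT1, was lower with AA in GM (-0.27 ± 0.076, adjusted p = 0.00996), a call lost without GM-AA replicate 2 or GM-PBS replicate 2. Neither passed with AA in DM by edgeR or DESeq2, and 0 had an unadjusted p under 0.05.

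Of 10 genes of lactate and pyruvate handling, 9 were tested. Ldha, the lactate dehydrogenase subunit that favours lactate formation, was lower in DM with -0.92 ± 0.045 in AA and -1.04 ± 0.045 in PBS. Pdk1, a kinase that turns off pyruvate dehydrogenase, was lower in DM with -1.24 ± 0.048 in AA and -1.26 ± 0.047 in PBS. In all, 5 were higher and 2 lower in DM in AA, and 4 were higher and 3 lower in DM in PBS. With AA, 1 was higher and 2 lower in each medium, and in DM 3 were higher without DM-AA replicate 1. Pdk1 fell with AA in both media (-0.21 ± 0.050 in DM and -0.23 ± 0.044 in GM). In DM, Pdk2 fell (-0.52 ± 0.11) and Pdha1, a subunit of pyruvate dehydrogenase, rose (0.23 ± 0.044). In GM the calls of Pdk2 (-0.43 ± 0.14) and Pdha1 (0.15 ± 0.046) were lost after correction for GC and length. The GM call of Pdk2 was also lost with DESeq2 and without GM-AA replicate 2 or 3 or GM-PBS replicate 2 or 3, and that of Pdha1 without GM-AA replicate 2 or GM-PBS replicate 1.

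Acat2 and Aacs stood beside 17 tested genes of sterol synthesis and its regulation. With AA, 1 of the 17 was higher and 13 were lower in DM (median log2 fold change -0.37), and 1 was higher and 7 lower in GM (median -0.18), while the median over all tested genes was 0.0021 in DM and -0.0034 in GM. Insig1, which holds the SREBP complex in the endoplasmic reticulum, fell with a log2 fold change of -0.98 ± 0.063 in DM (adjusted p = 7.89e-14) and -0.67 ± 0.075 in GM (adjusted p = 3.80e-08). Lss, which closes the sterol ring system, fell in DM (-0.53 ± 0.062), and its AA effect was larger there than in GM (difference -0.44 ± 0.099, adjusted p = 0.00478). The one gene higher with AA was Cyp51, the sterol demethylase, at 0.17 ± 0.052 in DM (adjusted p = 0.0148) and 0.20 ± 0.056 in GM (adjusted p = 0.00919); it was named after its values were seen. Its DM call was lost without DM-AA replicate 2 or 3 or DM-PBS replicate 3, and its GM call without GM-AA replicate 3 or GM-PBS replicate 3. The AA effect was lower in DM than in GM for 3 of the 17 (Lss and Idi1 among them). Only the Lss call held in all 21 alternatives, and the count was 1 without GM-AA replicate 1, GM-PBS replicate 2 or 3, DM-AA replicate 2 or 3 or DM-PBS replicate 1 or 2. Between media, 14 were higher in DM in AA and 16 in PBS, and 0 were lower. Of all tested genes, 25.9% were higher in DM in AA and 27% in PBS. With AA, 13.8% of all tested genes were lower in DM and 11% in GM. Hmgcs1, the cytosolic synthase that follows Acat2 in the pathway, was listed at 0 in all 12 libraries. How reads were assigned to genes is not given in the sources used here, so this 0 does not show that the gene was not expressed.

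**Figure D4:**
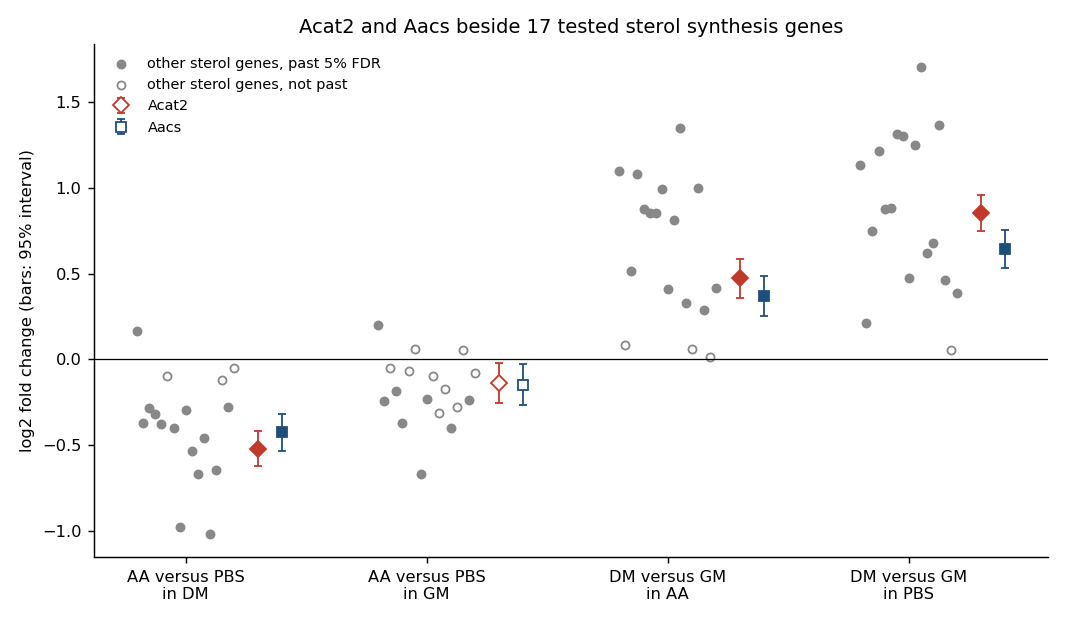
Log2 fold change (vertical axis) of 17 tested sterol synthesis genes (circles) beside Acat2 and Aacs (with 95% intervals) for AA against PBS in DM and GM and for DM against GM in AA and PBS; filled symbols passed 5% FDR. With AA in DM, 13 of the 17 lie past the threshold below 0, on the side of Acat2 and Aacs.

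Among the related thiolases and the trifunctional protein of fatty acid oxidation, 5 of 6 genes were tested. Acaa2, the mitochondrial thiolase of fatty acid oxidation, fell with AA in both media (-0.49 ± 0.065 in DM and -0.40 ± 0.067 in GM), opposite to Acat1. Acaa1a, a peroxisomal thiolase, had -0.31 ± 0.099 with AA in DM (adjusted p = 0.0195) and fell in GM (-0.55 ± 0.11). The DM call was lost after correction for GC and length (-0.21, adjusted p = 0.113), with DESeq2, and without DM-AA replicate 2 or 3 or DM-PBS replicate 3. These were the 2 genes lower in each medium. Between media, 4 of the 5 were higher in DM in AA and 3 in PBS, among them Hadha, the α subunit of the trifunctional protein (0.29 in AA and 0.25 in PBS).

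For the 6 members whose group means of log2 CPM spanned at least 0.5, the tested genes with the most similar profile were found over the 12 libraries, among 9405 candidates with a mean of at least 10 CPM, by the root mean square difference of centred log2 CPM. The nearest to Acat2 were Fah (0.0764) and Plk1s1 (0.0799), and to Aacs Nsmf (0.0731) and Setbp1 (0.0752). The nearest to Slc16a1 were Psmd8 (0.0368) and Alkbh5 (0.0436), to Slc16a3 Pgm2 (0.0402) and Pxdc1 (0.0547), and to Bsg Slc35e1 (0.0438) and Rfc1 (0.0487). For Bdh1, with few reads, the nearest, Coro6 (0.272) and Hlcs (0.291), were several times farther away. Oxct1 and Acat1 spanned 0.38 and 0.24 and were not matched.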

How the data were processed

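The files hold one table of 23446 genes in 12 libraries. The submitters' processing notes name the aligner BWA 0.5.9-r16 and the build mm9. How reads were counted per gene, with which annotation and strand, and what was done with multiply mapped reads is not given in the sources used here. Raw read counts per gene were deposited by the authors, per the file headers. The authors also deposited RPKM, per the file headers, which matched those recomputed from counts and gene lengths within 0.000499%; the counts summed to 63.2% to 64.9% of the reads in the RPKM divisor. Counts were used for tests, RPKM for levels between genes.

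Genes were kept with filterByExpr (12230 tested), scaled by TMM and fitted with edgeR 4.0.16 (glmQLFit and glmQLFTest, two-sided) with 4 group means over the 12 libraries (8 residual degrees of freedom, common BCV 4.08%). The Benjamini-Hochberg adjustment ran over the 12230 genes in each comparison, and the threshold was 5% FDR. The SE is the absolute log2 fold change divided by the square root of F. CPM are TMM-scaled. Replicate libraries differed by a chi-square of 1.45 to 2.89 per degree of freedom, where 1 is counting noise. Alternatives used DESeq2 1.42.0, limma 3.58.1 on log2(RPKM + 1), other scalings and filters, a GC and length offset, the replicate block and each library left out. GC content, overlaps and shared 31-base words came from GENCODE M21 (GRCm38), with 98.36% of genes matched by name, whereas reads were aligned to mm9. The fit was also run on counts simulated with a single dispersion and no trend with GC or length. That run therefore cannot speak to the GC differences between AA and PBS libraries.

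The members and lists were chosen with earlier results of these data known. Named are all members, up to 4 genes of each list with the smallest p past 5% FDR in a comparison (some left out, mostly where calls were lost), and the 2 nearest profiles of each member; others are said to be chosen after their values were seen. Some genes of these lists are counted but not reported by name here.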

Additional observations from a re-analysis of the deposited data

Results flagged for a closer look

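The effect of AA differed between the media for 2 members. For Acat2 the AA effect in DM minus that in GM was -0.38 on the log2 scale (adjusted p = 0.00126), with all 3 DM-AA libraries below all 3 DM-PBS libraries and all 3 GM-AA libraries below all 3 GM-PBS libraries. For Aacs the difference was -0.28 (adjusted p = 0.0321), with the DM groups apart and the GM groups overlapping. The Aacs call was lost in 9 of 21 alternatives and the Acat2 call in 0 of 21.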

How the results depend on the processing

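The AA effects of Acat2 and Aacs in DM, the difference of the Acat2 effects, and the changes between media of Acat2, Aacs, Slc16a1, Slc16a3 and Bsg kept their direction and stayed past 5% FDR in every alternative that was run. In GM, the number of members higher with AA was 0 with DESeq2 and after correction for GC and length, alone or with the replicate block, and the number lower was 0 after that correction, alone or with the block; leaving out a library gave 0 to 2 higher and 1 to 2 lower. In DM, 2 were higher after that correction, alone or with the block, and 0 to 1 without a library. The number lower in DM was 4 after that correction, alone or with the block, where Oxct1 and Slc16a1 passed and Slc16a3 did not. Without a library, 2 to 3 were lower in DM. The members with a lower AA effect in DM than in GM numbered 1 with DESeq2 or limma, and 1 to 2 without a library. They numbered 3 after that correction, alone or with the block, with Oxct1 added. No count over all genes moved by more than 1.5 times in these alternatives; with DESeq2 they were 1798 in GM, 2444 in DM and 476 for the difference.

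Some small values changed sign. After that correction, the AA effect in GM was 0.030 for Bsg (0.031 with the block) and -0.0033 for Slc16a1 (-0.0034 with the block). Without a library, the reversed values were 0.0050 for Bsg with AA in GM, -0.51 and -0.054 for Bdh1 with AA in DM (range over libraries -0.51 to 0.34), and -0.021 to -0.0041 for Acat1 between media in PBS (range -0.021 to 0.059). For the difference of effects they were -0.029 for Acat1 (range -0.029 to 0.051), 0.013 to 0.091 for Bdh1 (range -0.76 to 0.091) and -0.037 and -0.0039 for Slc16a3 (range -0.037 to 0.069). The cause was not tested.

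Libraries of the same replicate number showed no clear pairing: the correlation of their deviations was -0.0676 to 0.0823. Whether libraries of the same number were handled together is not given in the labels. With the replicate block, 2444 genes passed with AA in GM, 3109 with AA in DM, 6588 between media in PBS, 6332 in AA and 590 for the difference. Among the members the block changed the call of Bdh1 between media in AA, to an adjusted p of 0.0512. Bdh1 had 10 to 35 reads per library, and its few reads and the spread between its libraries cannot be told apart as limits. Each library was set against the 3 of another group, and in 6 of 36 such sets its own number correlated best.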
